A study of Mus musculus with 23 samples.

Results

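Remote H3K27ac elements are candidate enhancers that lie in long stretches of the mouse genome where only enhancer-list regions were called. H3K27ac, an acetylation of histone H3, marks promoters and enhancers that are in use. H3K4me2, a dimethylation of the same histone, lies over promoters and enhancers in use and also over ones that are poised or inactive. An enhancer can act on a gene from a great distance along the chromosome, and stretches with few genes often hold enhancers of developmental and neuronal genes.

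The enriched regions came from the cortex of C57BL6J mice at postnatal day 56, dissected into anterior cingulate (ACC), retrosplenial (RSC), lateral entorhinal (LEC) and medial entorhinal (MEC) cortex. ACC and RSC are midline areas, and LEC and MEC are the divisions of the entorhinal cortex. Both hemispheres were dissected from 500 µm horizontal or coronal sections, and the labels name no treatment. The tissue was bulk, so fewer cells with a region and less signal per cell cannot be told apart. The labels describe 23 libraries, with 2 of each mark and 2 inputs from every subregion, save that MEC H3K4me2 has 1. Each subregion and mark has 1 full list and 1 enhancer list. Neither gives a value for a single library, so replicate error could not be measured, no test over animals was run, and the depth behind each list is unknown.

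Elements were made by merging the 4 H3K27ac enhancer lists wherever regions overlapped by at least 1 bp. An excluded region is one in a full list of either mark that is not in the enhancer list. The sources used here do not state the rule behind that exclusion, so a distance to an excluded region is not a distance to a promoter. An element was remote when its edge lay more than 200 kb from every excluded region of both marks and all 4 subregions, on the 19 autosomes. This gave 3338 remote elements of 41055 autosomal elements, or 8.13%, out of 42115 elements on all chromosomes. They were set against 28800 near elements, within 50 kb of an excluded region, and 8917 elements lay in between. The members were chosen by their measured distance to the nearest excluded region, so distances are given as a description. Excluded H3K4me2 regions cannot lie at a remote element by that rule, so H3K4me2 was read from the enhancer lists alone. Sharing was read from the enhancer lists too. A near element can lie over an excluded region of either mark, which counts toward neither its sharing nor its H3K4me2.

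The median remote element lay 322 kb from the nearest excluded region, with quartiles of 247 and 488 kb and a maximum of 2247 kb, and the median over all autosomal elements was 19.2 kb. The elements just inside the threshold were chr14:25983701-25989250, at 200025 bp and carried by ACC and LEC, and chr7:132054476-132056550, at 200050 bp and carried by RSC. Just outside it were chr10:98934001-98946100, at 199975 bp and carried by ACC, RSC and MEC, and chr15:94661326-94663400, at 199950 bp and carried by RSC. Coordinates are in mm9 and counted from 1. Genes were not assigned, since the gene table at hand is for another build.

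Remote elements carried H3K4me2 less often than near ones. An H3K4me2 enhancer region of at least 1 subregion overlapped 1721 of 3338 remote elements, or 51.6%, and 19976 of 28800 near elements, or 69.4%. Over all autosomal elements it was 67.1%. The difference was -17.8 percentage points, with a 95% Newcombe interval of -19.6 to -16.0. Intervals here cover counting error only, and elements are not replicates, since neighbours share a locus. The share was lower in remote elements on 19 of 19 autosomes.

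The H3K4me2 share was lower in each further distance class beyond 50 kb. It was 71.3% of elements at 5 to 20 kb and 71.3% at 20 to 50 kb, 68.7% at 50 to 100 kb and 61.2% at 100 to 200 kb. Inside the remote range it was 57.4% of 1472 elements at 200 to 300 kb, 50.6% of 1081 at 300 to 500 kb and 45.6% of 665 at 500 to 1000 kb. Beyond 1 Mb, 21.7% of 120 elements carried it, with a Wilson 95% interval of 15.2 to 29.9. The intervals of neighbouring distance classes did not overlap beyond 20 to 50 kb, except between 100 to 200 kb and 200 to 300 kb and between 300 to 500 kb and 500 to 1000 kb. Elements that touched an excluded region had 65.3%, below those at 5 to 50 kb. Excluded H3K4me2 regions over them were not counted, so their share with H3K4me2 of any kind could be higher.

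**Figure D1:**
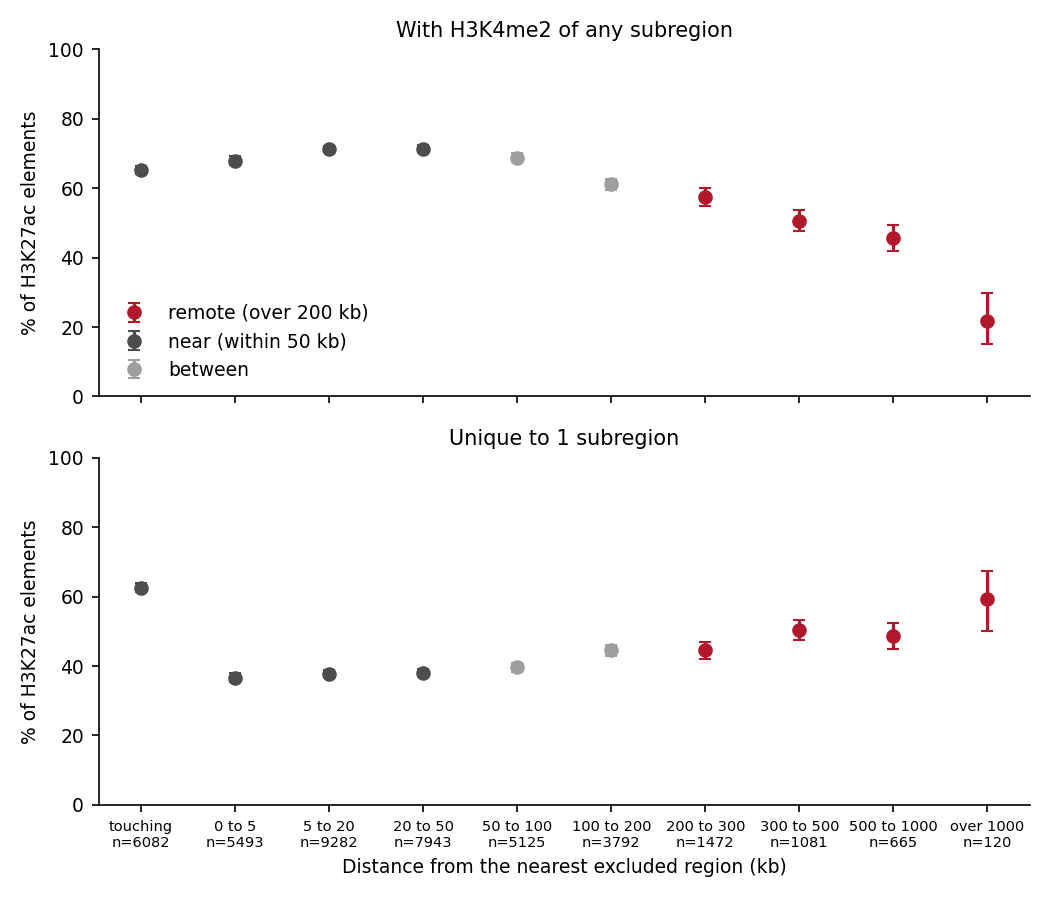
Share of H3K27ac elements with H3K4me2 of any subregion (top) and unique to 1 subregion (bottom), in %, by distance from the nearest excluded region in kb. Points are shares with Wilson 95% intervals. The H3K4me2 share goes down beyond 100 kb to 21.7% past 1 Mb, and the unique share is high among touching elements (62.6%) and again beyond 300 kb. Excluded regions themselves count toward neither sharing nor H3K4me2.

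Within width classes the H3K4me2 share was again lower in remote elements, and the difference was largest among the widest elements. Classes were made by the widest H3K27ac region of an element before merging. Among elements under 1 kb the share with H3K4me2 was 33.9% of 398 remote and 38.5% of 3183 near elements, and the interval of the difference, -9.33 to 0.535 points, included 0. At 1 to 2 kb it was 48.6% in remote and 59.99% in near elements, and at 2 to 3 kb 51.6% and 72.0%. At 3 to 5 kb it was 60.3% in remote and 82.2% in near elements. Among elements of 5 kb or wider it was 68.3% of 360 remote and 93.5% of 4360 near elements, a difference of -25.2 points (-30.2 to -20.5).

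Where H3K4me2 was present it covered much of the element in both groups. The median covered share was 74.4% of the bases of remote elements with the mark and 79.8% in near ones. Over all bases of all elements, H3K4me2 covered 33.0% in remote and 54.3% in near elements.

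**Figure D2:**
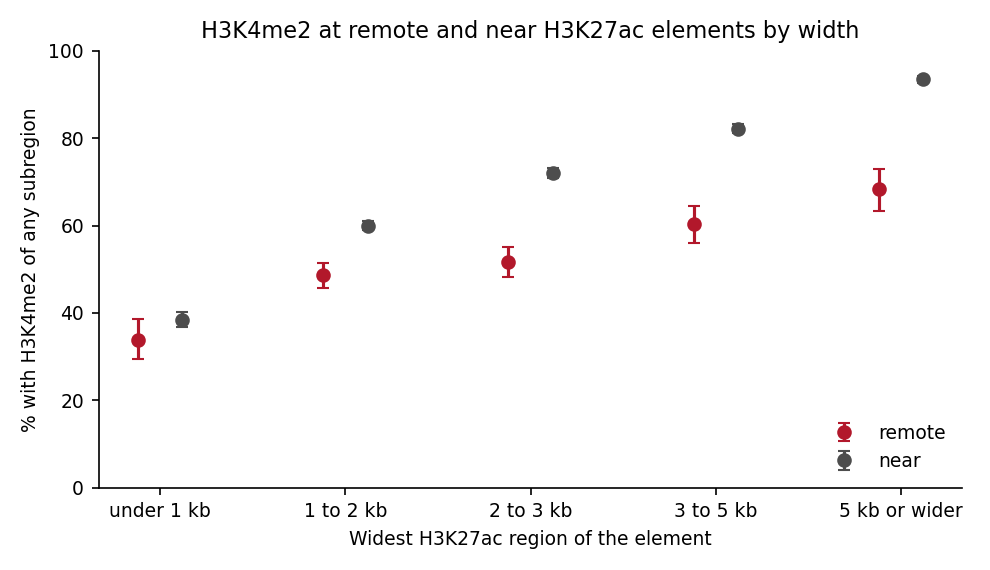
Share of remote (red) and near (grey) H3K27ac elements with H3K4me2 of any subregion, in %, by the width of the widest H3K27ac region. Points are shares with Wilson 95% intervals. The gap between remote and near widens with width, to 68.3% against 93.5% at 5 kb or wider.

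The direction was the same at each number of subregions that carried an element, though not in each combination of them. Among elements of 1 subregion, 33.4% of remote and 52.2% of near ones carried H3K4me2, and among elements of 2 subregions 58.1% and 74.0%. In 3 subregions it was 73.8% of remote and 87.0% of near elements. Elements carried by all 4 subregions lacked H3K4me2 altogether in 41 of 296 remote cases, or 13.9% (10.4 to 18.3), and in 118 of 2758 near cases, or 4.28% (3.58 to 5.10). So did 17 of 79 remote elements of 10 kb or wider, or 21.5% (13.9 to 31.8), and 20 of 1081 near ones, or 1.85% (1.20 to 2.84). Among the combinations, only ACC with MEC went the other way, with H3K4me2 at 72.2% of 36 remote and 62.4% of 210 near elements. ACC alone had 51.9% in remote and 54.6% in near elements, and ACC with LEC 77.4% and 79.4%, with overlapping intervals. RSC alone had 23.7% and 43.2%, and RSC with MEC 32.8% and 66.2%.

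Remote elements were somewhat more often unique to 1 subregion. There were 1595 unique elements among the remote ones, or 47.8% (46.1 to 49.5), and 12361 among the near ones, or 42.9% (42.3 to 43.5), against 43.1% over all autosomal elements. The difference of 4.86 points (3.08 to 6.65) had the same sign on 15 of 19 autosomes. It was -1.76 points when the LEC lists were left out, with an interval, -3.62 to 0.0969, that included 0. Elements in all 4 subregions were 8.87% of remote and 9.58% of near elements, with 9.73% over all, and the interval of that difference of -0.709 points, -1.69 to 0.357, included 0. Without the chromosome 9 gap described further on, which held 21 such elements, it was -1.20 points (-2.16 to -0.148), and against near elements at 5 to 50 kb it was -2.40 (-3.44 to -1.29). Without the LEC lists, for elements in all 3 subregions left, it went the other way, to 3.02 points (1.69 to 4.43). Near elements that touched an excluded region were unique in 62.6% of cases and in all 4 subregions in 1.79%, and those at 5 to 50 kb were unique in 37.9%. Sharing was counted from the enhancer lists alone. A touching element could thus lie over an excluded H3K27ac region of another subregion and still count as unique.

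The uniqueness difference varied between width classes, and was near 0 only in those under 2 kb. In the class under 1 kb, 93.5% of remote and 93.8% of near elements were unique, and at 1 to 2 kb 60.1% and 60.4%. At 2 to 3 kb it was 39.1% in remote and 33.7% in near elements, a difference of 5.33 points (1.85 to 8.90). In the wider classes the difference was 3.27 and 2.78 points, with intervals that included 0. Elements in all 4 subregions were not rarer among remote elements in any width class. From the narrowest class to 3 to 5 kb the differences were 0.00, 0.460, 0.878 and 0.410 points. At 5 kb or wider, 40.3% of remote and 35.2% of near elements were in all 4, a difference of 5.07 points (-0.0695 to 10.4). The intervals of all these differences included 0.

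Remote elements were slightly narrower. Their median width was 2050 bp, with quartiles of 1250 and 3150 bp, and near elements had 2200 bp, with 1375 and 3775 bp, while all autosomal elements had 2175 bp. The remote median was the lower on 16 of 19 autosomes. Unique elements hardly differed, at 1375 bp in remote and 1400 bp in near elements, but elements of 3 subregions had 3050 and 3550 bp and those of all 4 had 5087.5 and 5625 bp. Before merging, the medians of remote regions were lower than those of near regions in ACC (1850 against 2125 bp), RSC (1925 against 2100 bp) and LEC (2075 against 2250 bp). MEC went the other way, with 2225 bp in remote and 2075 bp in near regions. Elements of 10 kb or wider were 2.37% of remote and 3.75% of near elements.

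The subregions did not contribute evenly to the remote set. Remote elements were 10.7% (10.1 to 11.4) of the elements of MEC, 8.87% (8.51 to 9.25) of those of RSC, 6.80% (6.51 to 7.11) of those of ACC and 6.38% (6.06 to 6.72) of those of LEC. Intervals of ACC and LEC overlapped and the others did not. RSC carried 60.4% of remote and 54.2% of near elements, and MEC carried 32.2% and 23.6%. ACC carried 53.7% of remote and 64.7% of near elements, and LEC 41.1% and 53.9%. RSC and MEC thus took larger shares of the remote than of the near set, and ACC and LEC smaller ones. MEC was not high at long distances alone. Elements that touched an excluded region were 21.6% of the elements of MEC, 11.7% of those of LEC, 11.6% of those of RSC and 7.16% of those of ACC. Of near elements at 5 to 50 kb, MEC carried 20.4%, RSC 56.6%, LEC 57.1% and ACC 73.0%.

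The H3K4me2 enhancer regions, which were not merged into the elements, had the same order. Over regions before merging, 9.61% (9.14 to 10.1) of MEC, 7.20% (6.90 to 7.51) of RSC, 6.69% (6.43 to 6.97) of ACC and 6.21% (5.94 to 6.50) of LEC H3K4me2 enhancer regions were remote. For H3K27ac regions the values were 10.6% in MEC, 8.75% in RSC, 6.85% in ACC and 6.30% in LEC. The spread between RSC and ACC was smaller in H3K4me2, where the upper bound of ACC exceeded the lower bound of RSC. MEC had the shortest lists for both marks, and its H3K4me2 list came from the group with 1 library. It also had the fewest excluded regions, 11520 for H3K27ac and 14472 for H3K4me2. RSC had 16734 and 17285, LEC 18558 and 18441, and ACC 19734 and 19620. The same excluded regions set the distances for both marks, so the 2 orders are not separate results. Whether these counts bear on the order was not tested.

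The sharing classes showed which combinations carried the remote set. RSC alone was the commonest, with 591 elements or 17.7% of the remote set, against 11.0% of near elements. The class of ACC, RSC and LEC without MEC was 9.05% of remote and 14.5% of near elements. MEC alone was 9.23% of remote and 5.05% of near elements, RSC with MEC 3.83% and 1.56%, and ACC, RSC and MEC without LEC 5.84% and 2.47%. ACC alone was 10.04% of remote and 15.9% of near elements, and LEC alone was nearly level, at 10.8% and 11.0%. Elements carried by RSC or MEC and by neither ACC nor LEC made up 30.8% (29.2 to 32.4) of remote and 17.6% (17.2 to 18.1) of near elements. The reverse class, in ACC or LEC and in neither RSC nor MEC, was 27.4% (25.9 to 28.9) of remote and 37.6% (37.0 to 38.1) of near elements. Of all 7664 elements of the former class 13.4% were remote, and of all 14937 of the reverse class 6.11%, against 8.13% over all autosomal elements. The grouping follows the subregion shares given above, so these sums restate them.

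**Figure D3:**
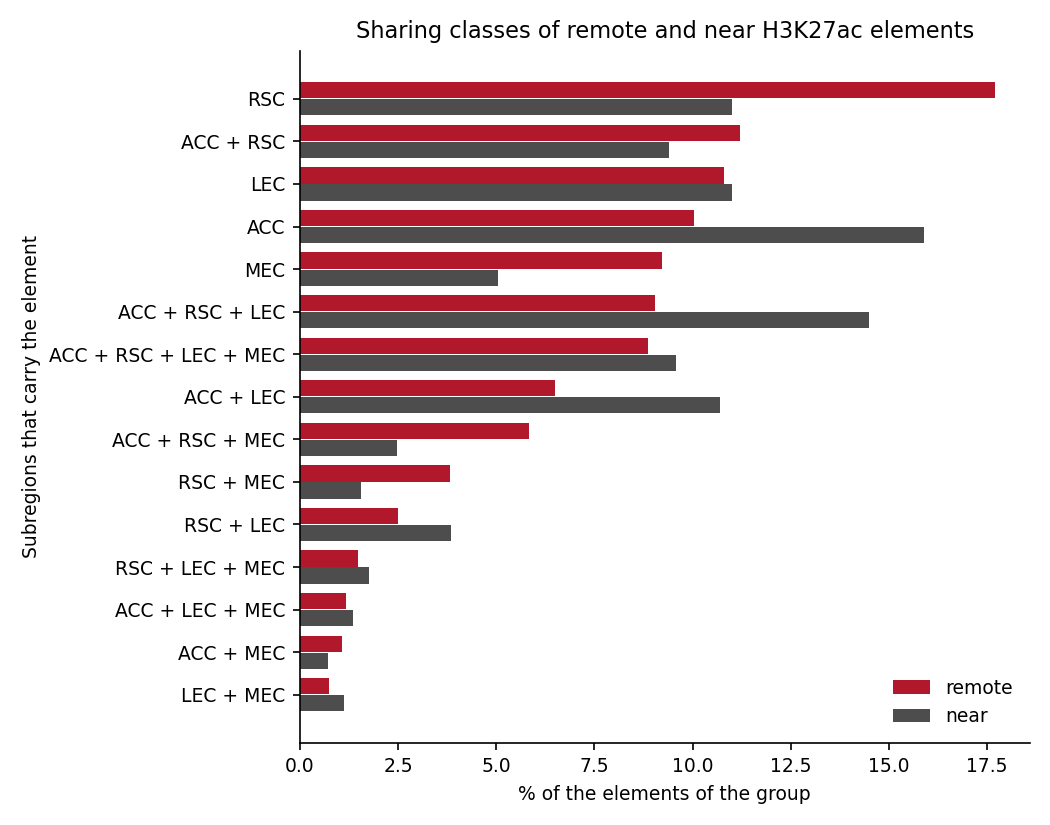
Share of remote (red) and near (grey) elements in each of the 15 combinations of subregions, in % of the group. RSC alone, MEC alone, RSC with MEC, and ACC, RSC and MEC take larger shares of the remote set (17.7%, 9.23%, 3.83% and 5.84%), and ACC alone and the class of ACC, RSC and LEC take smaller ones.

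Overlap with LEC and overlap with ACC were both lower in the remote set for each of the other 3 subregions. Of the remote elements of RSC, 36.2% (34.1 to 38.3) were also in LEC, against 54.9% (54.1 to 55.6) of near ones, and of the remote elements of MEC 38.0% (35.2 to 40.9) against 58.5% (57.3 to 59.6). ACC elements were also in LEC in 854 of 1793 remote cases and 10425 of 18625 near cases, a difference of -8.34 points. For overlap with ACC the differences, remote minus near, were -8.64 points for RSC elements, -7.23 for MEC elements and -4.91 for LEC elements. LEC and ACC carried smaller shares of the remote set as a whole, so these overlaps are not separate from those shares. In the other direction, ACC elements were also in RSC in 65.0% of remote and 55.7% of near cases, and also in MEC in 31.6% and 21.8%. Overlap with RSC was slightly lower for remote LEC elements (-1.91 points) and remote MEC elements (-2.94 points), where the intervals of the remote and near shares overlapped. LEC and MEC together and no other subregion carried 25 remote elements, or 0.749% of the remote set, against 1.13% of near elements.

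Uniqueness moved in opposite directions between the subregions. Of ACC remote elements 18.7% (16.9 to 20.6) were unique to ACC, and of ACC near elements 24.5% (23.9 to 25.2), with 23.6% over all ACC elements. RSC had 29.3% (27.4 to 31.3) in remote and 20.3% (19.7 to 21.0) in near elements, with 21.1% over all. LEC had 26.3% (24.1 to 28.7) and 20.4% (19.8 to 21.0), and MEC 28.6% and 21.4%, with 21.1% over all elements of each. MEC elements at 5 to 50 kb were unique in 8.92%, well under the value of all near MEC elements, which also hold those at or within 5 kb of excluded regions. The ACC difference, -5.86 points, was 0.137 points when the RSC lists were left out. The LEC difference, 5.93 points, was 2.13 (-0.482 to 4.78) without the ACC lists. Without the LEC lists the RSC difference, 8.96 points, was 5.28 (3.18 to 7.44), and the MEC difference, 7.25 points, was 3.74 (0.899 to 6.69).

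H3K4me2 of the same subregion was rarer in remote than in near elements in all 4 subregions. In RSC it overlapped 39.9% (37.8 to 42.1) of remote and 57.2% (56.4 to 58.0) of near elements, and 54.9% over all RSC elements. MEC had 25.3% (22.8 to 28.0) in remote and 40.3% (39.1 to 41.4) in near elements, with 36.9% over all, and its H3K4me2 list was the shortest. The MEC difference of -15.0 points was -7.76 (-9.97 to -5.29) with regions of at least 1000 bp. In ACC it was 52.3% (49.9 to 54.6) of remote and 62.9% (62.2 to 63.5) of near elements, and in LEC 51.7% (49.1 to 54.4) and 62.7% (61.9 to 63.5), with 62.1% and 61.5% over all elements of ACC and of LEC.

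Elements unique to RSC or to MEC were the least marked. H3K4me2 of RSC overlapped 98 of 591 remote elements unique to RSC, or 16.6% (13.8 to 19.8), and 30.2% (28.6 to 31.8) of near ones. No H3K4me2 enhancer region of any subregion overlapped 451 of those 591, or 76.3%, against 56.8% of near ones. For remote elements unique to MEC, 30 of 308 carried MEC H3K4me2, or 9.74% (6.91 to 13.6), and 252, or 81.8%, carried none of any subregion. The share with none was 46.8% of near elements unique to MEC, 71.3% of those at 5 to 50 kb and 77.9% of those between 50 and 200 kb. Near elements unique to MEC carried MEC H3K4me2 in 24.6%, but those at 5 to 50 kb in 13.4% (10.1 to 17.6), whose interval overlapped that of the remote ones. For elements unique to ACC the remote and near values were 40.6% (35.5 to 45.9) and 43.8% (42.4 to 45.3), with overlapping intervals, and for LEC they were 36.3% (31.5 to 41.4) and 43.3% (41.6 to 45.0).

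**Figure D4:**
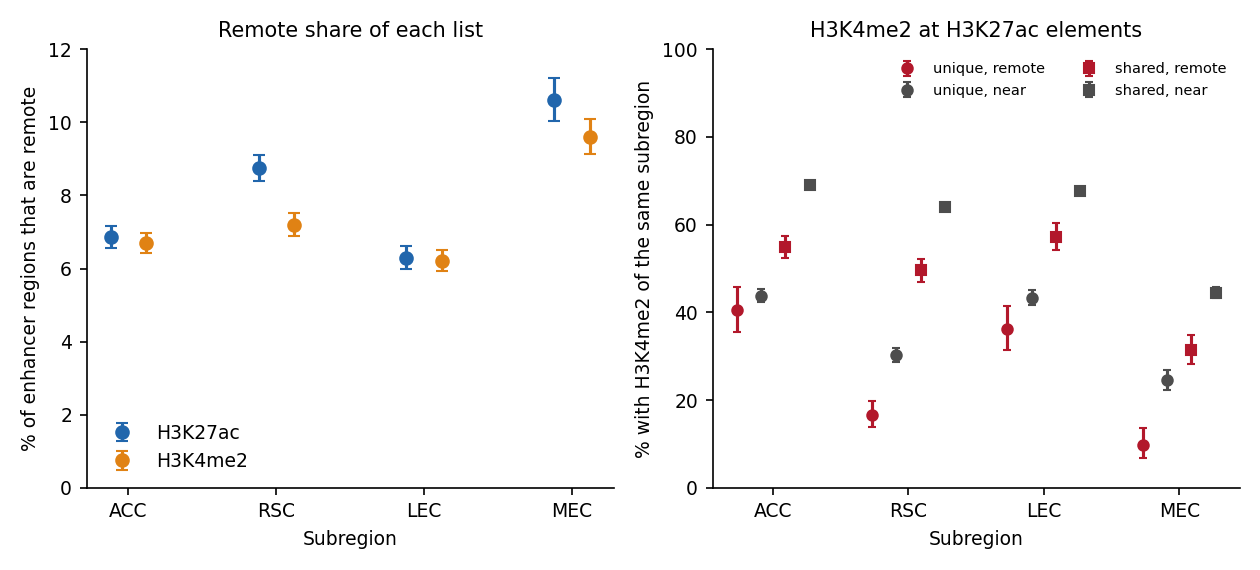
Left, share of the H3K27ac (blue) and H3K4me2 (orange) enhancer regions of each list that are remote, in %. Right, share of unique (circles) and shared (squares) elements with H3K4me2 of the same subregion, in %, for remote (red) and near (grey) elements. Points are shares with Wilson 95% intervals. MEC has the highest remote share for both marks (10.6% and 9.61%), and remote elements unique to RSC (16.6%) or MEC (9.74%) carry the mark least.

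Unique elements that carried H3K4me2 of their own subregion and of no other among the remote elements were 51 for RSC, 35 for ACC, 34 for LEC and 17 for MEC. These doubly marked elements were 10.4% of remote and 13.1% of near unique elements in ACC, and 8.63% and 10.2% in RSC. In LEC they were 9.42% of remote and 13.8% of near unique elements, and in MEC 5.52% and 11.1%. The MEC direction turned against near elements at 5 to 50 kb, of whose unique MEC elements 4.78% were doubly marked. The widest of ACC were chr9:61466776-61472000, 5225 bp wide with an ACC H3K4me2 region of 4050 bp, and chr13:26047751-26051925, 4175 bp wide with one of 1900 bp. The widest of RSC were chr5:45582851-45589500, 6650 bp, and chr1:76024151-76029925, 5775 bp, with RSC H3K4me2 regions of 950 and 1150 bp. LEC had chr12:52068201-52072625, 4425 bp, and chr6:140832001-140836275, 4275 bp, with LEC H3K4me2 regions of 1550 and 975 bp. MEC had chr2:57670051-57675775, 5725 bp with a MEC H3K4me2 region of 600 bp, and chr3:25452626-25456175, 3550 bp with one of 4875 bp.

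The most distant elements differed from each other in marks. The farthest, chr14:91119151-91121500, lay 2247 kb from any excluded region, was 2350 bp wide, came from LEC alone and carried no H3K4me2 enhancer region. Next was chr15:16657476-16661450, at 2086 kb. It was in the H3K27ac lists of RSC (1375 bp), LEC (3950 bp) and MEC (3850 bp), and in the H3K4me2 lists of all 4 subregions, with the widest region, 4425 bp, from LEC, then RSC (3800 bp), ACC (2325 bp) and MEC (1500 bp). The third, chr1:28863476-28864900, at 1908 kb, was 1425 bp wide, from RSC alone and without H3K4me2. Of the 120 elements beyond 1 Mb, RSC carried 77, ACC 48, MEC 42 and LEC 32. Over all remote elements RSC carried 60.4%, ACC 53.7%, MEC 32.2% and LEC 41.1%.

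The remote elements were gathered in 630 gaps between neighbouring excluded regions. A closed gap was 0.415 to 5.64 Mb long with a median of 0.861 Mb, and 2 gaps were open at a chromosome end. The median gap held 4 remote elements, 147 gaps held 1, and 92 gaps with at least 10 held 1492 elements, or 44.7% of the set. RSC carried the most elements in 45 of these 92 gaps, ACC in 18, LEC in 10 and MEC in 6, and 13 were ties. That is also the order of their shares of all remote elements, 60.4%, 53.7%, 41.1% and 32.2%. Whether the gap counts go beyond these shares was not tested. In the 92 gaps the share with H3K4me2 had a median of 50%, quartiles of 38.2% and 64.4%, and was below the near value in 75.

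The gap with the most members, chr16:5257476-7069050, held 65 remote elements in 1.81 Mb. ACC carried 42 of them, LEC 40, RSC 36 and MEC 17, and 44 carried H3K4me2, or 67.7%. LEC had 8 unique elements there, RSC 7, ACC 6 and MEC 4. All 6 elements of all 4 subregions carried H3K4me2.

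The next, chr9:112143176-113614300, held 54 remote elements over 1.47 Mb, and H3K27ac covered far more of it than H3K4me2. RSC carried 46 of the 54 elements, ACC 39, MEC 35 and LEC 28. In all, 21 were in all 4 subregions, and 15 of the 54, or 27.8%, carried any H3K4me2. The mark was at 13 of those 21, or 61.9%, against 95.7% of near elements in all 4 subregions. It was at 10 of the 15 elements of 10 kb or wider, or 66.7%, against 98.1% of near ones. Over the whole gap, RSC H3K27ac enhancer regions covered 384 kb, LEC ones 312 kb, MEC ones 296 kb and ACC ones 251 kb. H3K4me2 enhancer regions there covered 24.5 kb in RSC, 28.3 kb in LEC, 3.90 kb in MEC and 34.8 kb in ACC. Of the 41 remote elements in all 4 subregions without H3K4me2, 8 were in this gap. Without it, 33 of 275 remote elements in all 4 subregions lacked H3K4me2, or 12% (8.67 to 16.4).

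This gap also held 2 of the 3 widest remote elements carried by all 4 subregions. The widest was elsewhere, chr14:24693351-24725500, 32150 bp wide, where H3K27ac covered 30550 bp in the ACC list, 30375 bp in RSC, 29700 bp for LEC and 9725 bp for MEC. H3K4me2 covered 22850 bp of it for ACC, 19425 bp for RSC, 18850 bp for LEC and 1150 bp for MEC. At chr9:113335976-113360225, 24250 bp wide, RSC H3K27ac covered 23150 bp, MEC 17450 bp, ACC 16000 bp and LEC 14525 bp. H3K4me2 covered 1400 bp of it for ACC and for RSC, 1325 bp for LEC and 0 bp for MEC. At chr9:113192176-113216400, 24225 bp wide, the ACC list held 3150 bp of H3K4me2 and the other 3 lists none.

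**Figure D5:**
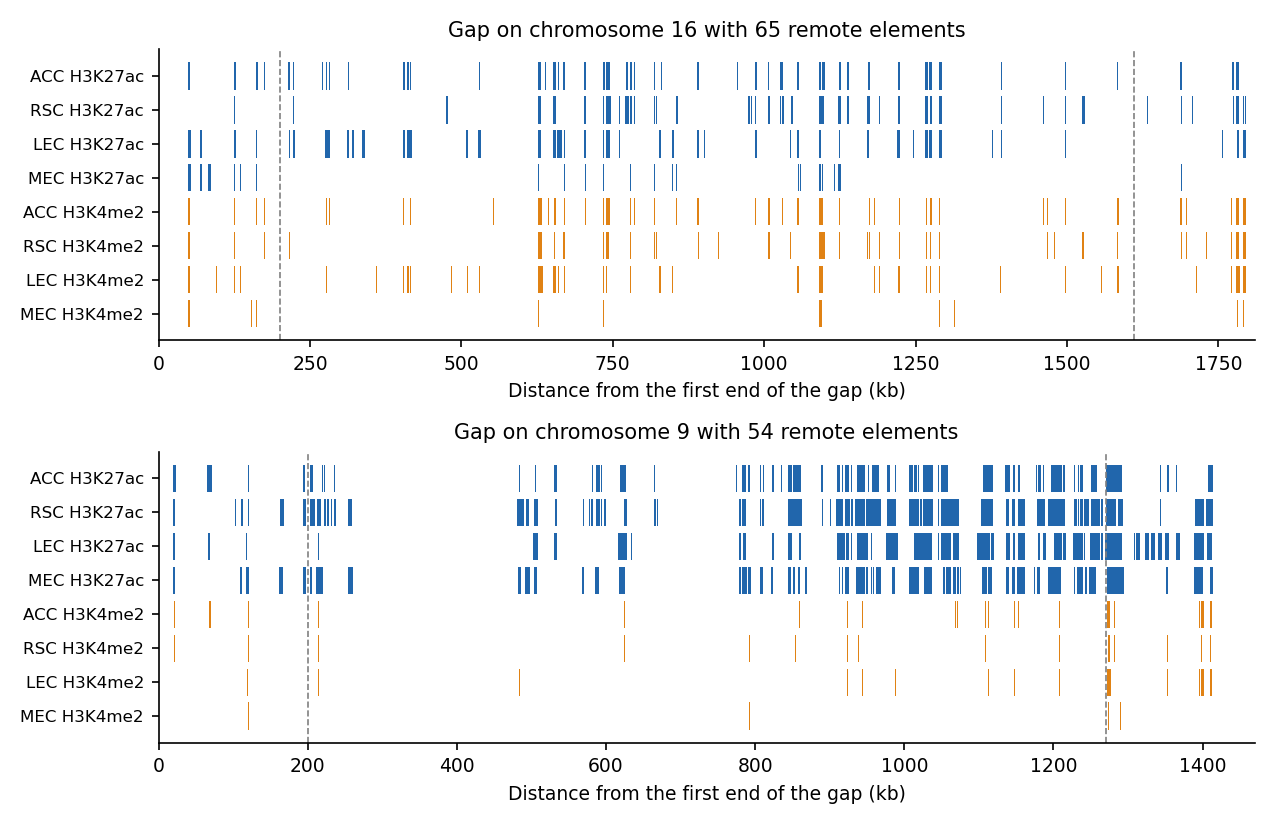
H3K27ac (blue) and H3K4me2 (orange) enhancer regions of each subregion in the gaps on chromosomes 16 and 9 with the most remote elements, by distance in kb from the first end of the gap. Dashed lines mark 200 kb from either end. On chromosome 9, H3K27ac covers 384 kb and H3K4me2 24.5 kb in RSC, and on chromosome 16 they cover 132 and 85.8 kb in RSC.

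The remaining named gaps differed in which subregion carried the most elements. The gap chr12:25787001-27070350 held 35 remote elements, of which RSC carried 29, 12 of them unique, ACC 20, LEC 10 and MEC 3, and 42.9% carried H3K4me2. At chr3:20266751-21970550 there were 32, of which ACC and RSC carried 24 each, MEC 13 and LEC 11, and 59.4% had H3K4me2. At chr3:142546501-143848025 there were 30, of which ACC carried 24, RSC 22, MEC 13 and LEC 7, and 40% had it. LEC led at chr10:122708101-125402150, where it carried 19 of 26 remote elements, 13 of them unique, against 7 in ACC, 7 in RSC and 4 in MEC. RSC H3K4me2 overlapped 9 of the 26, ACC 8, LEC 5 and MEC 5. Over the whole gap, H3K4me2 enhancer regions of LEC covered 37.4 kb, those of RSC 34.1 kb, those of ACC 28.4 kb and those of MEC 13.9 kb.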

How the data were processed

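ChIP-seq of both marks was deposited as lists of enriched regions, 1 full and 1 enhancer list per subregion and mark. Bowtie 1.1.1, bedtools 2.19.0 and mm9 are named per the submitters' processing notes. The lists are labelled as reproducible regions, but the caller, its threshold and how libraries were combined into a list are not stated in the sources used here. The MEC H3K4me2 list has the same label, though its group has 1 library. List length can move with library depth, which is unknown. The deposited score equals the region width in every list that has one (0 exceptions), so it gives no enrichment. A repeat of 1 list was left out, which left 16 lists.

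Regions were merged, and distances, overlaps (at least 1 bp) and shares computed, in Python (3.11.15) using numpy (2.4.6), scipy (1.17.1) and, for figures, matplotlib (3.10.9). The distance and sharing steps were tested on simulated lists. Shares have Wilson 95% intervals and differences Newcombe ones, which cover counting error only. No p-value is given, since elements are not replicates. Named regions are the 6 gaps with the most members, the 3 farthest and 3 widest 4-subregion members, the 2 widest doubly marked members per subregion and those beside the threshold, without chromosome 18. The members, lists and settings were chosen with earlier results of these data known.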

Additional observations from a re-analysis of the deposited data

How the results depend on the processing

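In all, 15 alternatives were tried, 4 of them (leaving out the ACC, RSC or LEC lists, or the chromosome 9 gap) chosen after seeing the data. The H3K4me2 difference was below 0 in 15 of 15. It was -12.7 points for remote elements beyond 100 kb and -27.5 beyond 500 kb, -19.7 against near elements at 5 to 50 kb, -20.2 for regions of at least 1000 bp and -15.8 without the MEC lists. Requiring a subregion to cover 50% of an element could not change it, since that setting alters sharing alone. Counting as excluded only regions that overlap no enhancer region of their list gave the main values throughout. The ratio of median widths stayed at 0.909 to 0.943. The difference in unique elements was 7.40 points beyond 500 kb, 9.85 against elements at 5 to 50 kb and -1.76 (-3.62 to 0.0969) without the LEC lists. The difference in elements of every subregion was -1.81 points beyond 500 kb, -2.40 against elements at 5 to 50 kb, -1.20 without the chromosome 9 gap, and, where every means the 3 left, -5.94 without MEC and -1.77 without ACC. It turned to 0.281 without RSC, 3.02 without LEC, 0.531 when a subregion had to cover 50% of an element and 0.0158 before merging. The set held 7130 elements beyond 100 kb, 785 beyond 500 kb and 6485 regions before merging. The ACC difference in unique elements was 0.137 without RSC, and the MEC difference in own H3K4me2 was -7.76 for regions of at least 1000 bp. The order MEC, RSC, ACC, LEC of the remote share held in 10 of 11 alternatives with all 4 subregions, and with 50% coverage LEC (6.50%) passed ACC (6.44%). Choosing other near elements could not alter this order. Per subregion, 158 values stayed within the interval of the main value, among them values that their setting could not change. Another 65 moved out of that interval and 1 changed sign. The cause of these changes was not tested. No paired analysis was possible because the lists give no values per library, and for the same reason no library could be left out. The unknown depth of each list limits every count.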

Other observations

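The territory of the remote elements was sparse for both marks. Between the first and last region of each autosome, 679 Mb lay more than 200 kb from every excluded region and 1139.6 Mb within 50 kb of one. Remote territory held 4.92 H3K27ac elements per Mb and near territory 25.3, and for H3K4me2 elements, merged in the same way, the densities were 5.69 and 31.1 per Mb. Near density was thus 5.14 times the remote density for H3K27ac and 5.48 times for H3K4me2. Seen from H3K4me2, the marks also met less often far away: 46.8% (45.2 to 48.3) of 3860 remote and 61.0% (60.5 to 61.5) of 35492 near H3K4me2 elements overlapped an H3K27ac element. Remote elements lay a median of 15.8 kb from the nearest other H3K27ac element and near ones 6.20 kb, and 55.4% of remote and 79.6% of near elements had another within 20 kb.

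Among gaps with at least 10 members outside chromosome 18, those at either end of the H3K4me2 range were picked after their values were seen. At chr1:142331451-145486225, 1 of 24 remote elements carried H3K4me2, while RSC carried 15 of the 24, MEC 14, ACC 12 and LEC 1. At chr15:68922901-71346425 none of 13 did, with 9 in MEC, 6 in RSC, 3 in ACC and 0 in LEC, and at chr17:89192826-90483150 none of 10, with 8 in RSC and 5 in MEC. At the other end, 12 of 13 remote elements carried it at chr13:107813851-108620375, where ACC carried 11, RSC 7, LEC 6 and MEC 5. At chr14:88872176-94276350, 5.40 Mb long, 12 of 15 did.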
